A study of Mus musculus with 20 samples.

Results

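The nuclear genes that encode subunits of the mitochondrial respiratory chain were read in 20 mouse heart libraries. Members were rows of the deposited gene table whose symbol starts with Nduf and a subunit letter and number, Uqcr, Cox4 to Cox8 or Atp5, or is Cyc1, Cycs or Cyct. Of 29339 genes, 85 matched, and 80 of them had at least 10 counts in at least 3 libraries. These 80 had at least 10 counts in all 20 libraries: 35 belong to complex I, 9 to complex III, 1 is cytochrome c, 17 belong to complex IV and 16 to complex V. The remaining 2, Atp5s and Ndufa4l2, carry such names but are kept apart here because they are not standard subunits. The 5 rows that did not pass had no library with 10 counts. They were Cyct, the testis form of cytochrome c, with at most 5 counts in any library, and Ndufa11b, Ndufb4c, Cox6c2 and Cox7b2. A further 4 rows with "-ps" in the symbol were left out by the rule, among them Ndufb1-ps with 1646 to 3522 counts.

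The libraries came from hearts of C57BL/6 mice aged 8 weeks, either wild type (WT) or lacking Tecrl (Tecrl KO), a gene related to an enzyme of fatty acid elongation whose loss in people is linked to catecholaminergic polymorphic ventricular tachycardia. By label there were 5 male WT libraries (WT1, WT2, S7, S8 and S9), 5 male KO (S10, S11, S12, TKO5 and TKO6), 3 female WT (S1, S2 and S3) and 7 female KO (S4, S5, S6 and TKO1 to TKO4). The study sequenced poly-A RNA and describes fewer mice than there are libraries, so the p-values measure only the spread between these libraries, which may be technical. How the Tecrl allele was made is not given in the sources used here. The library names form 2 series, S-numbered (12 libraries) and WT- or TKO-numbered (8 libraries), and no female WT library belongs to the second.

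Oxidative phosphorylation turns electrons from food into a proton gradient and then into ATP. Complex I takes electrons from NADH, complex III passes them to cytochrome c, complex IV hands them to oxygen, and complex V is the ATP synthase that uses the gradient. A small core of subunits is encoded in mitochondrial DNA and all the others in the nucleus. The heart depends on this pathway for nearly all of its ATP, and several complex IV subunits exist as a heart and skeletal muscle form and a form found in most tissues.

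Before any result, the labels and libraries need a description. Tecrl itself had 51.9 to 122.5 CPM (counts scaled by library size and TMM factor) in the male WT libraries and 60.3 to 99.4 CPM in the male KO libraries, by label. By label again, it had 75.5 to 85.2 CPM in female WT and 70.4 to 95.3 CPM in female KO, so the targeted gene did not separate the labels. Counts per exon were not analysed here. Xist, which is transcribed in female cells, had 252.0, 285.1 and 325.1 CPM in 3 libraries with a male label, S7 to S9. Ddx3y, a Y-linked gene, had 83.4 to 102.1 CPM in 3 with a female label, S4 to S6. Within the S series every library labelled WT had Xist and every library labelled KO had Y-linked genes, so genotype and sex-linked expression cannot be told apart there. Groups are therefore named by their labels, and the genotype and series comparisons are also given without those of S4 to S9 that they use. S7 stood apart as well: its 5 atrial marker genes summed to 7014 CPM and its 5 adipocyte marker genes to 861.0 CPM. The atrial sum was also high in S11 (7207 CPM), S9 (5894 CPM) and S12 (2061 CPM), and between 9.33 and 536.9 CPM in the other 16. The 8 cardiomyocyte markers summed to 33190 CPM in S7 and to between 36130 and 51110 CPM in the others. In bulk tissue fewer cells of a type and less RNA per cell cannot be told apart.

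The promoters of the tissue isoforms of complex IV are shown first, because the levels below are compared between pairs of genes for the same subunit. Cox7a1 and Cox8b are the forms of heart and skeletal muscle, and Cox7a2, Cox8a and Cox6a1 are the forms found in most tissues. Cox6a2, the heart and muscle form paired with Cox6a1, had no window in the RefSeq table and is not shown. Each line gives the 250 bases before the RefSeq transcription start (GRCm38.p6), read 5' to 3' on the gene's strand, with every CG dinucleotide in capitals.
Cox7a1, chr7:30183921-30184170, plus strand: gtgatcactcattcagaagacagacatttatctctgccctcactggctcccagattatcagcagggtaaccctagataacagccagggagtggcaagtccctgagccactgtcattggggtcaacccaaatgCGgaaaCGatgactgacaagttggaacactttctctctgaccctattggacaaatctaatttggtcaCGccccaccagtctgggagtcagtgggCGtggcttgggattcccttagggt
Cox7a2, chr9:79759854-79760103, minus strand: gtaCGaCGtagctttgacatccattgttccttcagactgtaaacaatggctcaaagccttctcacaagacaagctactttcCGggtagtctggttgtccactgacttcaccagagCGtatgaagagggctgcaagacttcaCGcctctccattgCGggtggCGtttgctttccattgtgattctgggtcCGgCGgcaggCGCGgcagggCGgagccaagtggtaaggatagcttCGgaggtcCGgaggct
Cox8b, chr7:140900447-140900696, minus strand: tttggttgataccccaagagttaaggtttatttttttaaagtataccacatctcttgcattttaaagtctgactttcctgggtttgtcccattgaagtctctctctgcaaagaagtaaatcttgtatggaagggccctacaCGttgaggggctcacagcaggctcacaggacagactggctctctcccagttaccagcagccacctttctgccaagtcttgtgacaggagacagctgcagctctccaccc
Cox8a, chr19:7217617-7217866, minus strand: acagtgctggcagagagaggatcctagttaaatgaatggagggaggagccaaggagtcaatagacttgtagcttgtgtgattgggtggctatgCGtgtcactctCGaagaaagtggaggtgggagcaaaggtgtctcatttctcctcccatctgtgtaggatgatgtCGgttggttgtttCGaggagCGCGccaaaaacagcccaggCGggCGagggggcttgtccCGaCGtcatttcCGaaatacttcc
Cox6a1, chr5:115348959-115349208, minus strand: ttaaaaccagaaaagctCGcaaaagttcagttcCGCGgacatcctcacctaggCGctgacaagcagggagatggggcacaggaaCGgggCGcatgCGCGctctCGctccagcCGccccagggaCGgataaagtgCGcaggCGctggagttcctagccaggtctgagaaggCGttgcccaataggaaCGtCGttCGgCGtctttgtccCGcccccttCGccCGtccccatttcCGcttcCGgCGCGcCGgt
The windows of Cox7a1 and Cox8b held 4 and 1 CG dinucleotides, and those of Cox7a2, Cox8a and Cox6a1 held 14, 11 and 26. The 68 windows of the 63 members in the RefSeq table had a median of 14 CG, with a range of 1 to 35. Only Cox7a1, Cox8b and Ndufc2, or 4.41% of the member windows, had at most 4, against 44.4% of 32851 windows of all genes.

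Letters of known motifs were counted on both strands in the whole window, which runs from 250 bases before to 50 bases after the start. The NRF1 letters, GCGCA and then GCGC with any base between, were present in 15 of 63 members (23.8%) and in 5.19% of 27025 genes. They occurred in complex I (Ndufa5, Ndufa6, Ndufa8, Ndufa11, Ndufb4, Ndufs5 and Ndufs6), in Uqcrc1 and Cox6a1, and in 6 members of complex V. In Cox6a1 they lay at positions -162 to -153 and -117 to -108 from the start. The YY1 letters AAGATGGC were in 9 members (14.3%, all genes 3.19%), the GABP letters CCGGAAGT in 5 (7.94%, all genes 4.31%) and the ERR letters TCAAGGTCA in 1, Atp5g3 (1.59%, all genes 0.466%). None of the motifs contains another. The NRF1 and GABP letters hold CG, and the 250 bases before the start had a median of 14 CG in members against 6 in all genes. The shares were not matched for CG. None of the 4 was found in the windows of 36 of the 63 genes, Cox7a1 and Cox8b among them, which says only that these letters are not there.

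The deposited FPKM values, which divide each count by 1 length per gene, set the order of the members. Their median over members was 306.7 FPKM, against 2.65 FPKM over the 15187 genes tested in all libraries. The highest were in complex IV. Cox6a2, the heart and muscle form of subunit 6a, had a median of 3059 FPKM (2186 to 3749 over the 20 libraries), followed by Cox8b with 2090 FPKM and Cox7a1 with 1766 FPKM. The ranges of these 3 genes overlapped. In complex V the catalytic-domain subunits Atp5a1 and Atp5b led with 1361 and 1344 FPKM, values that differed by less than their spread. In complex III the small subunits Uqcr11 and Uqcr10 led with 1033 and 798.5 FPKM, and the core subunit Uqcrc2 was lowest with 204.1 FPKM. Complex I was lower: its 35 members had a median of 205.1 FPKM and its highest, Ndufa1 and Ndufa5, had 661.3 and 658.1 FPKM. Cycs, the electron carrier between complexes III and IV, had 262.2 FPKM.

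**Figure D1:**
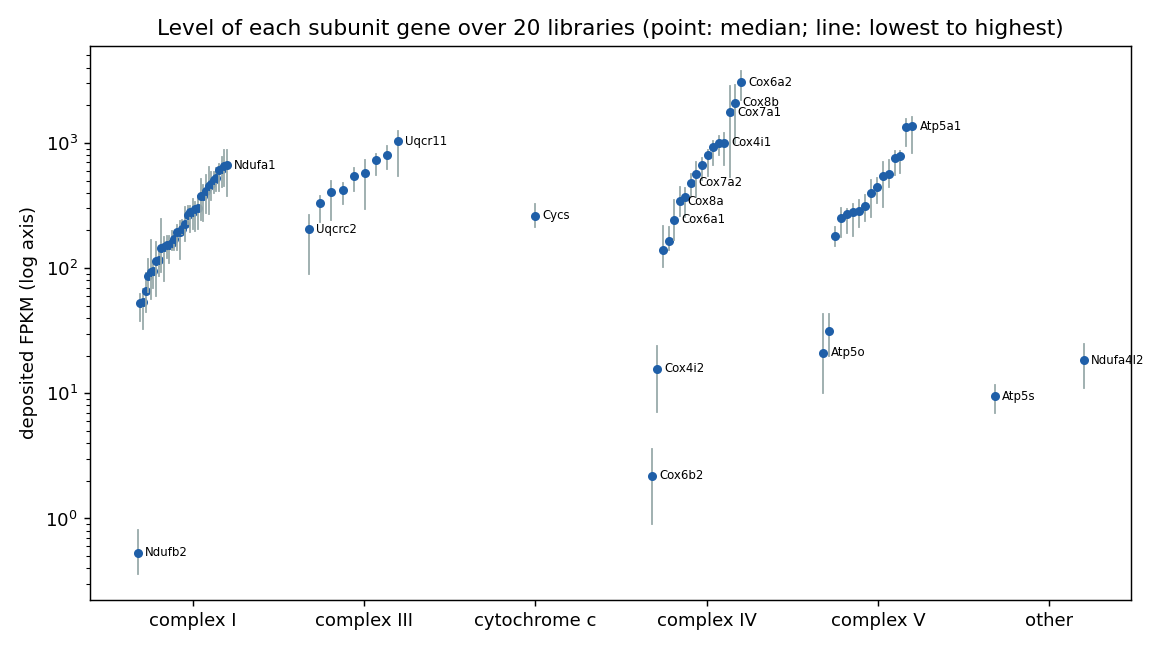
Deposited FPKM of each of the 80 members on a log axis, grouped by complex; each point is the median of the 20 libraries and each line runs from the lowest to the highest library. Cox6a2, Cox8b and Cox7a1 are the 3 highest members and Ndufb2 (0.535 FPKM) is the lowest.

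The lowest values need care. Ndufb2, a subunit of complex I, had 28 to 72 counts per library and 0.535 FPKM, and its exons overlap those of Braf on the opposite strand and of Gm42420 on the same strand, so reads that fall on both may not have been counted. Atp5o, the oligomycin-sensitivity subunit of complex V, had 21.0 FPKM, and another gene model named Atp5o overlaps it on the same strand. Atp5l had 31.4 FPKM, and the length behind that value spans the exons of all its annotated transcripts. Exons of 29 of the 80 members overlap another gene. Cox6b2, the testis form of subunit 6b, had 2.20 FPKM and 15 to 66 counts, and Cox4i2, the lung form of subunit 4, had 15.7 FPKM, and the exons of neither overlap another gene. Of the testis markers, only Prm1 was in the table, with at most 0.0659 CPM.

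By FPKM, the heart form supplied most of the transcript of each of the 3 complex IV pairs in every library. Cox6a2 (ENSMUSG00000030785, GRCm38 chromosome 7, 128205435 to 128206387 in GENCODE) took 92.2% ± 1.84 of the FPKM of Cox6a1 and Cox6a2 (SD, n = 20), with a range of 86.3% in S7 to 94.5% in TKO6. Cox8b (ENSMUSG00000025488, chromosome 7, 140898945 to 140900446) took 84.9% ± 4.30 of the pair with Cox8a, from 68.9% in S7 to 89.6% in TKO6. Cox7a1 (ENSMUSG00000074218, chromosome 7, 30184144 to 30186078) took 78.7% ± 5.95 of the pair with Cox7a2, from 56.4% in S7 to 84.4% in TKO3. S7 had the lowest share of the heart form in all 3 pairs. The lengths behind the FPKM are 535 bases for Cox7a1 and 944 for Cox7a2, and as a share of counts with no division by length, added after the data were seen, Cox7a1 took 42.3% in S7 and 62.2% to 75.5% in the other libraries.

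The Cox7a1 share differed with the series of the library name. It was 81.4% to 84.4% in the 8 WT- or TKO-numbered libraries and 74.4% to 79.7% in the S-numbered libraries other than S7, with no overlap. The Cox8b share was likewise 86.2% to 89.6% in the former and 82.7% to 85.7% in the latter. The Cox6a2 share overlapped, at 91.6% to 94.5% and 90.2% to 93.5%. These shares are descriptions and were not tested. By genotype, the Cox7a1 share was 74.6% ± 10.7 in male WT (SD, n = 5) and 79.2% ± 3.47 in male KO (SD, n = 5), and the male groups overlapped. It was 79.2% ± 0.309 in female WT (SD, n = 3), all S-numbered. Of the libraries labelled female KO, S4, S5 and S6 had 79.7%, 78.3% and 77.8%, a range that includes WT, and TKO1 to TKO4 had 81.9% to 84.4%, so the mean of the 7 shown in the plot of shares mixes the series.

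Other pairs were nearly constant. Cox4i1 took 97.9% to 98.95% of the subunit 4 transcript and Cox6b1 took 99.65% to 99.9% of subunit 6b. The 3 genes for subunit c of complex V, which encode the same mature protein, varied little in share: Atp5g3 took 61.8% ± 1.44 and Atp5g1 23.5% ± 1.16 of the FPKM (SD, n = 20). These shares depend on the lengths, 4912 bases for Atp5g1 and 2181 for Atp5g3, since by counts Atp5g3 took 47.4% to 51.4% and Atp5g1 38.55% to 44.2%.

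**Figure D2:**
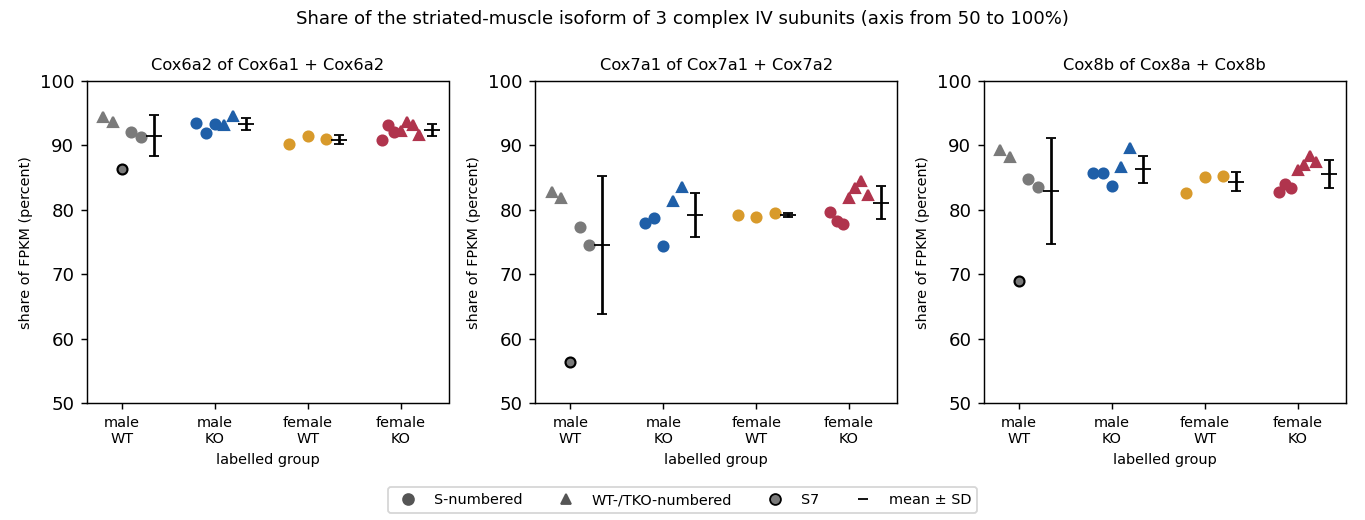
Share of the heart and muscle form in the FPKM of each complex IV pair, in percent, by labelled group; circles are S-numbered and triangles WT- or TKO-numbered libraries, the black rim marks S7, and bars are mean ± SD. The axis starts at 50%. S7 is lowest in each panel, and the triangles lie above the circles for Cox7a1 and Cox8b.

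Members varied little between libraries. The SD of log2 CPM over the 20 libraries had a median of 0.233 over the 80 members and of 0.329 over all genes tested, which as a set have fewer counts. Cox7a2l, a factor of supercomplex assembly, varied least (SD 0.142), and its level ran from 208.6 CPM in S7 to 315.9 CPM in S6. Cox7a1 varied most (SD 0.560), followed by Atp5o (0.524) and Uqcrc2 (0.523).

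All 4 complexes were lowest in S7. As the median of the members' log2 deviations from their own means, the lowest library was S7 at -0.53, where 76 of 80 members were below their mean, and the highest was TKO6 at 0.31, where 73 were above it. In S7 the medians were -0.55 for complex I, -0.49 for complex III, -0.58 for complex IV and -0.45 for complex V. In TKO6 they were 0.34, 0.23, 0.31 and 0.25. Both are labelled male, one WT and one KO. The complexes differed in other libraries: in S1 complex III was at 0.08 and complex I at -0.10, and in S4 they were at -0.03 and -0.22. S7 was the lowest library for 53 members and TKO6 the highest for 42. The cardiomyocyte marker sum was also lowest in S7 (33190 CPM) and highest in TKO6 (51110 CPM), and its part in the members' values was not tested. The members' share of all counts ran from 4.25% in S7 to 6.14% in TKO6.

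The other libraries lay between these. Libraries labelled male WT had median deviations of 0.21 (WT1), 0.10 (WT2), 0.04 (S8) and -0.15 (S9) beside S7. Those labelled male KO had 0.15 (S10), -0.05 (S11), -0.05 (S12) and 0.06 (TKO5) beside TKO6. Libraries labelled female WT had -0.05 (S1), 0.18 (S2) and 0.08 (S3), and the 7 labelled female KO ran from -0.18 (TKO2) to 0.16 (S6). Within each sex label the genotype groups overlapped.

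**Figure D3:**
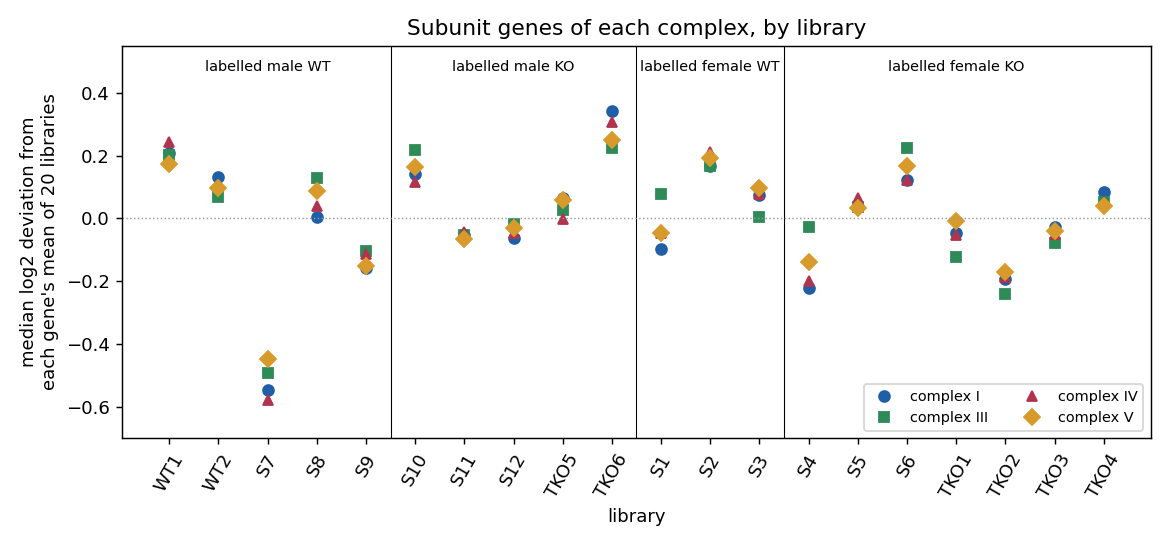
Median log2 deviation of the members of each complex from their mean over the 20 libraries, by library and labelled group; 0 is the mean. S7 is lowest for all 4, and TKO6 is highest, level with S6 for complex III.

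A second order of libraries was shared by 5 of the 80 members. Uqcrc2, a core subunit of complex III (chromosome 7, 120635176 to 120659524), had 223.9 CPM in S3, 254.9 in S2, 259.8 in S9, 285.2 in S11 and 317.2 in S12, and 447.1 to 763.2 CPM in the other 15 libraries. The same 5 libraries were also the lowest for Ndufa9, Ndufs1, Atp5a1 and Atp5c1, which belong to complexes I and V. Ndufa9 had 163.6 to 201.7 CPM in them and 212.8 to 417.0 CPM elsewhere. These 5 libraries carry 3 of the 4 group labels, with 2 labelled female WT, 1 male WT and 2 male KO. Atp5o ran the other way in part: its highest libraries were S2 (88.3 CPM), S11 (81.5 CPM) and S3 (74.0 CPM), and its lowest was TKO2 (20.9 CPM). Atp5c1 was named after its values were seen.

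The 5 genes lowest in those libraries have long coding sequences among the members: 1359 bases for Uqcrc2, 1131 for Ndufa9, 2181 for Ndufs1, 1659 for Atp5a1 and 894 for Atp5c1, against 639 for Atp5o, 537 for Ndufb9 and 429 for Ndufa11. Not every long member had that order: Ndufv3 (1404 bases) and Uqcrc1 (1440 bases) were lowest in S7. Across the 80 members of a library, the log2 deviation and the coding length had a Spearman rho of -0.500 in S2, -0.466 in S11, -0.428 in S3, -0.418 in S9 and -0.366 in S12, and of 0.555 in S1, 0.525 in S4 and 0.499 in S8. Over the 13502 genes with a coding length, rho in these 5 libraries was between -0.0773 and 0.0896. It was -0.0353 in S1, 0.0158 in S4 and -0.175 in S8, and over all 20 libraries it ran from -0.366 in S6 and -0.296 in S5 to 0.265 in TKO2. The members had 0.356 in S6, 0.244 in S5 and 0.360 in TKO2, so the members and all genes differed in sign in some libraries. The genes of a library share that library and are not independent, and these values were added after the data were seen.

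The question of whether these genes differ with the genotype label was asked within each labelled sex, as the study did, with the library series as covariate. For the male label, no member passed an adjusted p under 0.05 (quasi-likelihood test of edgeR, Benjamini-Hochberg adjusted over all genes), and 0.0% of the 14481 genes tested did. DESeq2 also called no member and 12 genes. No member passed the study's thresholds either (unadjusted p under 0.05 and absolute log2 fold change of at least 0.58), which 2.09% of all genes did, and the count of members was 0 to 2 with each library left out in turn, with 2 without TKO5 (2.07% of all genes in that fit). The members' log2 fold changes of KO against WT had a median of 0.13, with 66 of 80 above 0, while all genes had a median of -0.01 with 47.1% above 0. The complexes were alike: the median was 0.14 for complex I (33 of 35 above 0), 0.13 for complex III (8 of 9), 0.13 for complex IV (13 of 17) and 0.12 for complex V (11 of 16). At an unadjusted p under 0.05, 4 members and 4.75% of all genes were counted.

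That offset depended on single libraries. Without S7 the members' median was 0.05 with 59 above 0, and without S10 it was 0.06 with 55 above 0. In the S-numbered libraries alone it was 0.20. Without S7, S8 and S9 it was 0.04 with 55 above 0, and that contrast comes from WT1 and WT2 against TKO5 and TKO6 alone, since the series covariate takes up S10 to S12. Adipocyte markers moved with the contrast: 4 of 4 tested were lower in KO at the study's thresholds (median log2 fold change -4.01, none with an adjusted p under 0.05), with sums of 0.492 to 861.0 CPM in WT, highest in S7, and 0.242 to 23.3 CPM in KO. Of the other marker lists, 1 of 3 skeletal muscle genes passed those thresholds, and the part of the markers in the members' values was not tested.

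The members with the highest fold changes under the male label were Ndufb9, Atp5o and Ndufa11. Ndufb9, an accessory subunit of complex I (chromosome 15, 58933756 to 58939488), had 125.1, 139.4, 111.3, 148.0 and 159.2 CPM in WT1, WT2, S7, S8 and S9. It had 206.8, 243.8, 184.9, 140.4 and 205.4 CPM in S10, S11, S12, TKO5 and TKO6. Only TKO5 of the KO libraries lay within the WT range, and the log2 fold change was 0.50 ± 0.150 (SE, adjusted p = 0.88, edgeR). Its exons overlap Gm49356 on the same strand. Atp5o had a log2 fold change of 0.47 ± 0.171 and Ndufa11 of 0.41 ± 0.179 (SE, adjusted p = 0.88 for each, edgeR). Atp5k, a small subunit of complex V, and Atp5l had 0.38 and 0.32.

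Cox6b2 was at the other end. It had 2.78, 2.67, 2.64, 4.06 and 2.64 CPM in WT1, WT2, S7, S8 and S9 and 2.28, 1.73, 2.57, 1.84 and 1.77 CPM in S10, S11, S12, TKO5 and TKO6. The groups did not overlap, which held for 1 of the 80 members and for 0.587% of all genes, with 15 to 66 counts behind each level over the 20 libraries. The log2 fold change was -0.55 ± 0.220 (SE, adjusted p = 0.88, edgeR). Uqcrc2, Atp5a1, Ndufs1 and Cox6a1 had -0.25, -0.15, -0.13 and -0.11. Single libraries moved these 4: with each left out in turn, Uqcrc2 ran from -0.43 to -0.09, Atp5a1 from -0.28 to -0.04, Ndufs1 from -0.26 to 0.02 and Cox6a1 from -0.16 to -0.04. The heart forms did not pass the test: 0.18 ± 0.159 for Cox6a2, 0.32 ± 0.270 for Cox7a1 and 0.24 ± 0.210 for Cox8b (SE). Without S7 they were 0.09, 0.11 and 0.09, while Cox7a1 was 0.48 without S8 and Cox6a2 0.27 without TKO5.

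Under the female label the contrast came from S4 to S6 minus S1 to S3, since all WT libraries there are S-numbered and TKO1 to TKO4 add only to the estimate of spread. No member passed an adjusted p under 0.05, which 0.0551% of 14511 genes did (8 genes, 5 of them Xist and Y-linked genes). DESeq2 called 383 genes and no member, and at an unadjusted p under 0.05 there were 4 members and 17.9% of all genes. The study's thresholds took 2 members, Uqcrc2 and Atp5o, and 9.99% of all genes, and the count of members was 0 without S2 (8.51% of all genes in that fit) and 10 without S1 (20.6%). The members' median log2 fold change was -0.04 with 30 of 80 above 0, beside a median of -0.02 with 47.6% above 0 for all genes. This value depended on the fit: it was -0.10 with 55 below 0 with no series covariate, and -0.14 with 61 below 0 in 1 fit of all 20 libraries, where all genes had 0.0044. With single libraries left out it ran from -0.13 (without S6) to 0.05 (without S4). By complex it was -0.04 for complex I, 0.02 for complex III, -0.10 for complex IV (14 of 17 below 0) and -0.05 for complex V, and -0.22 for complex IV in the fit of all 20. Without S4, S5 and S6, and so without the series covariate, the members' median was -0.13 with 55 below 0, and the genotype label then coincides with the series. Of the markers of other cells, 3 of 4 atrial, 2 of 2 adipocyte, 1 of 4 macrophage, 1 of 3 smooth muscle and 2 of 3 skeletal muscle genes were higher at the study's thresholds and 1 skeletal muscle gene was lower, none with an adjusted p under 0.05. The atrial sum was 13.8 to 42.2 CPM in S1 to S3 and 15.3, 246.3 and 349.4 CPM in S4, S5 and S6, and the part of these markers in the members' values was not tested.

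Uqcrc2 had the highest fold change, 0.73 ± 0.305 (SE, adjusted p = 0.25, edgeR). It had 617.9, 254.9 and 223.9 CPM in S1, S2 and S3, and 484.0, 580.9 and 704.0 CPM as the lowest, median and highest of the 7 libraries labelled KO. S1 lay within the KO range and S2 and S3 below it. The ranges of KO in this paragraph include TKO1 to TKO4, which do not enter the fold changes. Ndufa9, an accessory subunit of complex I, had 335.7, 183.2 and 163.6 CPM against 303.6, 317.8 and 356.7 CPM, and its log2 fold change was 0.55 ± 0.219 (SE, adjusted p = 0.24, edgeR). S1 again lay within the range of KO. Atp5o had the lowest, -0.65 ± 0.291 (SE, adjusted p = 0.27, edgeR), with 40.5, 88.3 and 74.0 CPM against 20.9 (TKO2), 32.9 and 55.3 CPM. Its lowest value in an S-numbered library labelled KO was 32.6 CPM. Ndufb2, Ndufa11, Ndufb9 and Cox6b2 followed at -0.60, -0.52, -0.45 and -0.40, and Ndufs1, Ndufb8 and Cox5a were at 0.40, 0.38 and 0.37. Single libraries moved all of them. Ndufa9 ran from 0.36 without S3 to 0.94 without S1, Atp5o from -0.91 without S1 to -0.41 without S2, and Cox6b2 from -0.69 without S2 to -0.07 without S4. With S1 left out, Ndufs1, Ndufb8 and Cox5a reached 0.70, 0.68 and 0.66, and Ndufb2, Ndufa11 and Ndufb9 reached -0.80, -0.77 and -0.66. Their other ends were 0.25 without S3 (Ndufs1), 0.24 without S2 (Ndufb8 and Cox5a), -0.44 without S6 (Ndufb2), -0.35 without S2 (Ndufa11) and -0.32 without S4 (Ndufb9).

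The calls changed with a single library. Without S1, 11 members had an adjusted p under 0.05, beside 16.8% of all genes, and the 2 WT libraries left were S2 and S3. Of the 11, Uqcrc2, Ndufa9, Ndufs1, Ndufb8, Cox5a, Atp5a1, Atp5c1 and Ndufa10 were higher in the libraries labelled KO, and Atp5o, Ndufa11 and Ndufb9 lower. Uqcrc2 then had a log2 fold change of 1.33, and it had 0.47 without S3. With no filter on low counts, Uqcrc2, Ndufa9 and Atp5o passed, beside 4.06% of all genes, a share like that of the members.

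Cox6a1 was the 1 member whose groups labelled female did not overlap, which held for 4.96% of all genes. It had 199.4, 223.6 and 217.5 CPM in S1, S2 and S3 and 124.9 (TKO2), 161.8 and 192.4 CPM as the lowest, median and highest of the 7 KO libraries. The S-numbered libraries labelled KO, of both sex labels, had 156.5 to 192.4 CPM. Under the male label the groups overlapped, with 147.8, 152.0, 219.9, 185.4 and 183.6 CPM for WT1, WT2, S7, S8 and S9 and 148.9 to 185.8 CPM for the 5 KO. Over all 20 libraries its log2 fold change was -0.18 ± 0.0856 (SE, adjusted p = 0.996, edgeR), and it was the only member with an unadjusted p under 0.05, against 4.93% of 15187 genes.

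**Figure D4:**
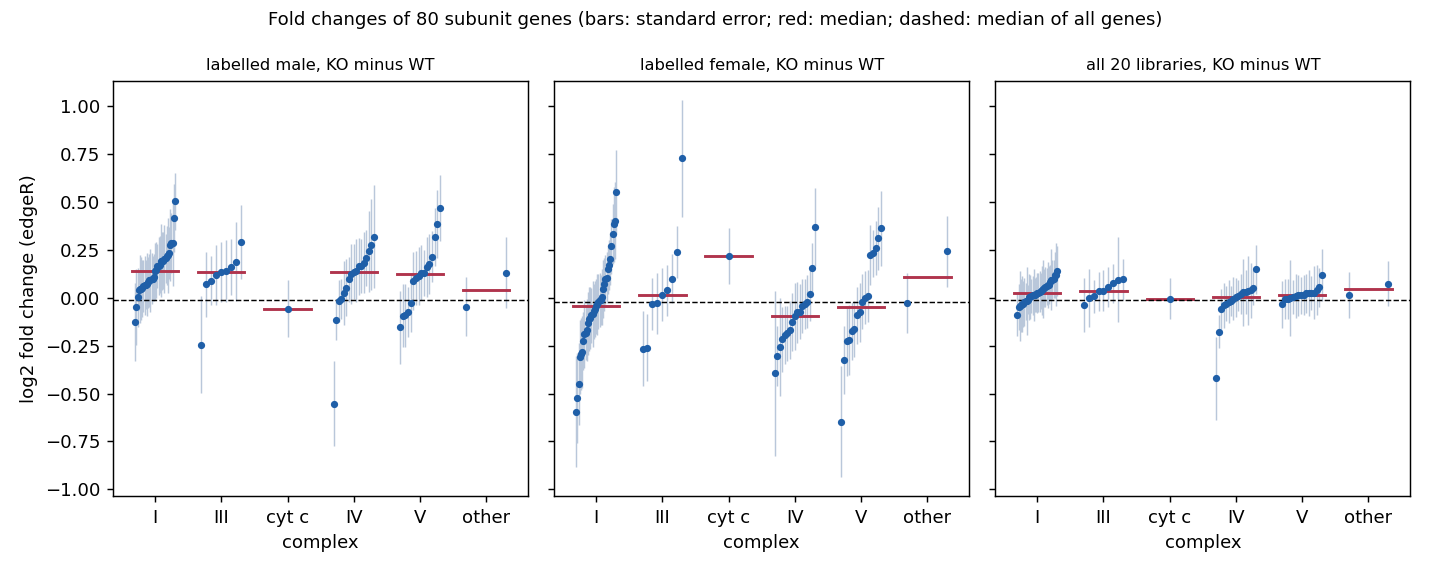
Log2 fold change of KO against WT for the 80 members by complex, in the libraries labelled male, those labelled female and all 20; bars are standard errors, red lines the median of each complex and the dashed line the median of all genes. For male most points lie above 0 (median 0.13), for female they lie on both sides of 0 (median -0.04), and in all 20 libraries they lie near 0 (median 0.02).

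Over all 20 libraries, with labelled sex and series as covariates, no member passed an adjusted p under 0.05 (0.0% of 15187 genes) or the study's thresholds (1.94% of all genes). DESeq2 called no member and 12 genes. The median was 0.02, with 55 of 80 above 0, and the fold changes ran from -0.42 for Cox6b2 to 0.15 for Cox5a, an early-assembled subunit of complex IV, which was 0.09 without S2 and 0.23 without S1. Without S7 the median was -0.03 with 27 above 0. Without S4 to S9 it was -0.11 with 4 above 0, and in the S-numbered libraries alone it was 0.10 with 71 above 0, so the direction changed with the libraries used.

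The difference between the labelled sexes in the genotype contrast was fitted as an interaction. No member passed an adjusted p under 0.05 (0.0% of 15187 genes), and DESeq2 called no member and 19 genes (0.125%). At an unadjusted p under 0.05 there were 17 members, against 15.6% of all genes, and 11 members passed the study's thresholds, against 11.3% of all genes. The latter count was 3 without S7, beside 8.88% of all genes in that fit, and 25 without S1, beside 20.3%. The members' median was -0.28 with 62 of 80 below 0, while all genes had a median of 0.0040. It comes from 1 fit of all 20 libraries with a series term shared by the sexes, in which the genotype contrast had a median of 0.14 for the male and -0.14 for the female label, against 0.13 and -0.04 in the separate fits. The lowest were Atp5o (-1.12 ± 0.330), Ndufa11 (-1.02 ± 0.292) and Ndufb9 (-0.98 ± 0.249, SE, adjusted p = 0.22 for each, edgeR), and the highest was Uqcrc2 (0.78 ± 0.416, adjusted p = 0.36, edgeR). Uqcrc2 ran from 0.53 without S3 to 1.39 without S1 (adjusted p = 0.032, edgeR). Without S7 the median was -0.16. Without S4 to S9, an alternative chosen after seeing the data, it was -0.30 with 70 below 0, and no member had an adjusted p under 0.05 or passed the study's thresholds (0.0% and 4.13% of all genes in that fit). Without S1, 6 members had an adjusted p under 0.05, beside 7.45% of all genes. Markers moved with this contrast: 4 of 4 adipocyte (median 6.59), 3 of 5 atrial, 1 of 4 macrophage genes and Ucp1, the brown fat marker, were higher and 2 of 4 endothelial genes lower at the study's thresholds, none with an adjusted p under 0.05. Their part in the members' values was not tested.

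The 2 series of library names were compared within the 12 libraries labelled KO, 6 of each series, with labelled sex as covariate. The series is a name and not a treatment. All S-numbered libraries labelled KO had Y-linked genes, as did TKO5 and TKO6, while TKO1 to TKO4 had Xist (298.0 to 456.6 CPM). Within the female label, series and sex-linked expression therefore cannot be told apart. This also holds for the partner genes compared by series below. Of the 80 members 2 had an adjusted p under 0.05, against 11.2% of 14540 genes, and both belong to complex IV. Cox7a1 had 955.2, 819.1, 761.0, 756.9, 847.5 and 941.7 CPM in S10, S11, S12, S4, S5 and S6, and 1296, 1650, 1099, 1125, 1278 and 1221 CPM in TKO5, TKO6, TKO1, TKO2, TKO3 and TKO4. Its ranges did not overlap, as in 1 of 80 members and 5.54% of all genes, and the log2 fold change of S against TKO was -0.61 ± 0.105 (SE, adjusted p = 0.0034, edgeR). In the libraries labelled WT it had 1449 and 1305 CPM in WT1 and WT2, and 257.0 to 1053 CPM in the 6 S-numbered ones.

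Cox5a was higher in the S-numbered libraries, by 0.41 ± 0.115 on the log2 scale (SE, adjusted p = 0.034, edgeR). It had 380.2, 283.4, 308.0, 359.0, 388.9 and 461.9 CPM in S10, S11, S12, S4, S5 and S6 and 301.6, 255.2, 332.3, 269.2, 251.6 and 251.2 CPM in TKO5, TKO6, TKO1, TKO2, TKO3 and TKO4, and the ranges overlapped. Its exons overlap Gm26631 on the opposite strand. Cox8b, at -0.30 ± 0.122, did not pass (SE, adjusted p = 0.12, edgeR), and was -0.19 without TKO6. The members' median was -0.01, with 43 of 80 below 0. It was 0.03 with upper-quartile scaling, which moved all genes to 0.04, and -0.17 with 67 below 0 without S4, S5 and S6. Cox7a1 passed with each of the 12 libraries left out in turn, and Cox5a did not pass without S5, S6, S10, TKO2, TKO3, TKO4 or TKO6. Without S4, S5 and S6 together no member passed, with 71 of 14274 genes called: Cox7a1 had -0.80 (adjusted p = 0.053, edgeR) and Cox5a 0.22 (adjusted p = 0.53, edgeR). Markers of other cells moved with the series: 3 of 4 atrial, 4 of 4 adipocyte and 3 of 4 macrophage markers tested were higher in the S-numbered libraries at an adjusted p under 0.05, as were 2 of 5 red blood cell and 1 of 3 smooth muscle markers, and of the 8 cardiomyocyte markers Ryr2 was lower. The atrial sum was 15.3 to 7207 CPM in the S-numbered KO libraries and 9.66 to 17.9 CPM in the TKO-numbered ones. The adipocyte sum was 5.64 to 23.3 CPM against 0.242 to 1.91 CPM, and the macrophage sum 93.4 to 185.2 CPM against 73.7 to 100.4 CPM. The part of these markers in the Cox7a1 and Cox5a differences was not tested.

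**Figure D5:**
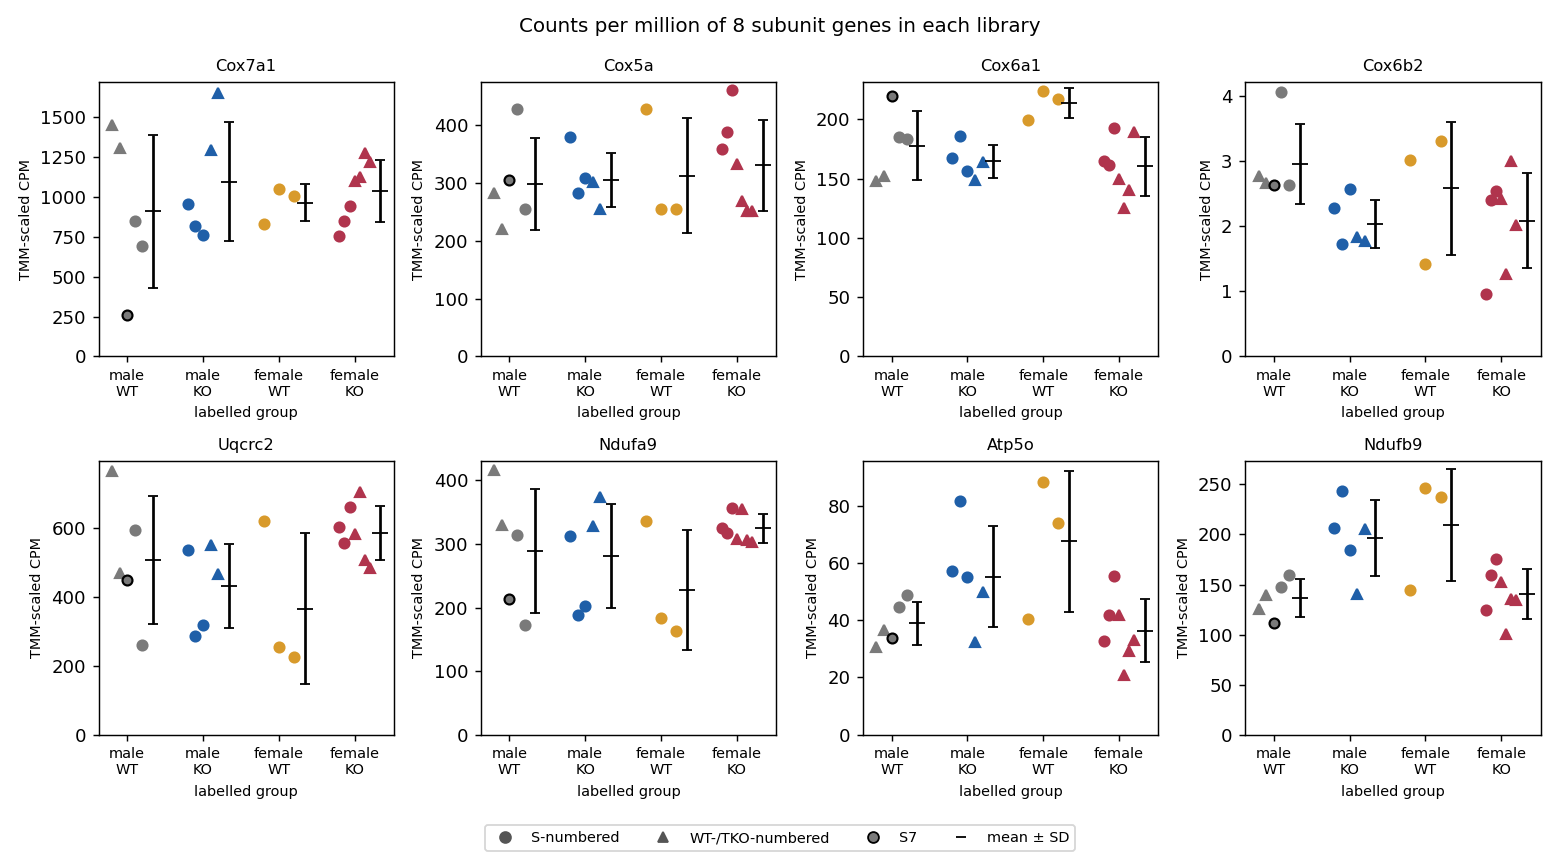
TMM-scaled CPM of 8 members in each library by labelled group; circles are S-numbered and triangles WT- or TKO-numbered libraries, the black rim marks S7, and bars are mean ± SD. Triangles lie above circles for Cox7a1 in the KO groups, and S2 and S3 (female WT) lie low for Uqcrc2 and Ndufa9 and high for Atp5o and Ndufb9.

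The partners of these subunits were read in the same comparisons. The 4 genes of complex II, the nuclear-encoded succinate dehydrogenase, had log2 fold changes of -0.33 (Sdha) to 0.07 (Sdhb) under the male label and of 0.07 (Sdhb) to 0.56 (Sdha) under the female label, and none passed an adjusted p under 0.05. The 12 tested subunits encoded in mitochondrial DNA were all above 0 under the male label (median 0.22) and all below 0 under the female label (median -0.33), from -0.78 for mt-Nd5 to -0.22 for mt-Co2, and none passed. As summed CPM of the 13 listed, male WT ran from 138400 in S7 to 278700 in WT1, and male KO from 193900 to 269500. Female WT had 188400 (S1), 334600 (S2) and 247700 (S3), and S4 to S6 had 194400 to 224200, so the groups overlapped. These fold changes were not read with single libraries left out. Between the series, 1 of the 12 passed, against 11.2% of all genes: mt-Nd5, a core subunit of complex I, differed in the S-numbered KO libraries by -0.63 ± 0.112 on the log2 scale (SE, adjusted p = 0.0038, edgeR). Mitochondrial transcripts took 15.3% of all counts in S7 and 30.4% in S2, the extremes of the 20 libraries.

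Assembly factors and regulators were counted too. None of the 14 factors for complex I, 6 for complex III, 17 for complex IV and 4 for complex V passed an adjusted p under 0.05 in either labelled sex. Under the female label 11 of 14, 4 of 6, 12 of 17 and 3 of 4 were above 0, with Taco1, a translational activator of mt-Co1, highest at 0.89. Under the male label 9, 3, 8 and 1 were above 0. Between the series, 1 of the 17 factors for complex IV and 1 of the 14 for complex I passed, and none for complexes III and V, against 11.2% of all genes. Cox19, a copper chaperone of complex IV, and Ndufaf4, a factor of complex I, were higher in the S-numbered libraries, by 0.47 (adjusted p = 0.0056) and 0.28 (adjusted p = 0.043, edgeR). Of 16 regulators, 13 were below 0 in the libraries labelled male, with Ppargc1a, the coactivator of mitochondrial biogenesis, lowest at -0.94. Under the female label 8 of 16 were below 0, Tfb1m was highest at 1.07 and Ppargc1a was at 0.83. None of the 16 passed an adjusted p under 0.05.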

How the data were processed

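Poly-A RNA from mouse hearts was sequenced in 20 libraries. The authors mapped the reads with HISAT2 to GRCm38 and counted them per gene with HTSeq 0.6.1p2, and deposited raw counts for 29339 genes, with total counts of 12540002 to 20038593 per library. The authors also deposited FPKM, which divide the counts by library size and by 1 exon length per gene. Strandedness of the kit is not given in the sources used here, so reads of overlapping genes on opposite strands cannot be told apart. No library was left out, and groups are those of the labels.

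Every gene that reached 10 counts in 3 or more libraries of a fit was tested with edgeR 4.0.16 in R 4.3.3 (quasi-likelihood test, TMM factors, Benjamini-Hochberg adjustment over all genes tested, threshold 0.05), with the library series as covariate, or labelled sex where the series was compared. Calls were also made with the study's cutoffs, an unadjusted p under 0.05 together with a log2 fold change of 0.58 or more in size. Here they were applied to the edgeR values, while the study used DESeq2. The fits were tested on simulated data with known changes that were larger than those of the members, without added differences in cell composition. That check does not cover changes as small as those of the members. Alternatives were DESeq2 1.42.0, upper-quartile normalization, limma 3.58.1 on log2(FPKM + 1), other filters, other covariates, subsets of libraries and each library left out in turn. Lengths, positions and overlaps came from GENCODE for GRCm38 and promoters from RefSeq for GRCm38.p6, where 63 of 80 members had one. Isoform shares are percent of summed FPKM. Exon overlaps were read from the annotation.

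Members and gene lists were chosen with earlier results of these data known. Named are the tissue isoforms, the members with the highest and lowest FPKM of each complex, the 5 highest and 5 lowest fold changes of each comparison, members and listed pathway genes with an adjusted p under 0.05, and the extremes of each list, as far as the text needed them.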

Additional observations from a re-analysis of the deposited data

Results flagged for a closer look

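In 153 sets of 4 to 10 libraries (a member or a share in a labelled group), the extreme library was set against the others of its group, and 8 stood apart by Dixon's 95% criterion. Chance flags about 1 in 20 such sets, which is close to the share found here. In male WT, S7 stood below the others in the Cox8b share of its pair with Cox8a (68.94% against 83.5% to 89.3%), in Cox4i1 (936.4 CPM against 1517 to 1602 CPM) and in Ndufb11 (336.2 CPM against 544.2 to 625.8 CPM). In the same group S8 stood above in Cox6b2 (4.06 CPM against 2.64 to 2.78 CPM). In male KO, TKO5 stood below in Atp5l (166.2 CPM against 239.2 to 266.7 CPM) and TKO6 above in Ndufv3, an accessory subunit of complex I (435.2 CPM against 257.2 to 298.1 CPM). In female KO, S5 stood above in Cox4i2 (17.04 CPM against 10.3 to 13.0 CPM) and TKO2 above in Ndufs1 (586.3 CPM against 418.1 to 487.3 CPM).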

How the results depend on the processing

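No paired analysis was possible because the numbers in the library names run through the groups and pair no libraries. The count of members with an adjusted p under 0.05 in KO against WT stayed at 0 for the male label and for all 20 libraries under each alternative. For the female label it was 3 with no filter on low counts (4.06% of all genes), and 0 to 11 with each library left out in turn, with 11 only without S1 (16.8% of all genes). Between the series it was 5 with DESeq2 (15.1% of all genes), 0 without S4, S5 and S6 (0.497%) and 1 to 3 with each library left out (5.21% to 12.1%). For the difference between the labelled sexes it was 0 to 6 with each library left out, with 6 only without S1. The cause of these shifts was not tested. With each library left out, the members' median log2 fold change ran from 0.0498 to 0.1878 (male), -0.1258 to 0.0499 (female), -0.0270 to 0.0503 (all 20), -0.0706 to 0.0432 (series) and -0.3572 to -0.1646 (difference between the sexes), so in 3 of the 5 its sign was not kept. Signs of single members turned, none of them past the threshold. For the male label Cox6a1 was 0.0467 without S7, S8 and S9 and 0.0466 in the WT- and TKO-numbered libraries alone, the same contrast chosen after seeing the data, and Ndufs1 was 0.0242 without S8. For the female label Cox5a was -0.1830 without S4, S5 and S6 and the series covariate. Over all 20, Cox7b was 0.0586 and Ndufa2 0.0297 in the S-numbered libraries alone, Ndufa10, Ndufa9 and Ndufb8 were -0.0327, -0.1024 and -0.0371 without S4 to S9, and Ndufa2 was 0.0215 without S2. The difference between the sexes for Cox6b2 was -0.0165 without S2. The effect of depth was not tested. Ndufb2 and Cox6b2 rest on fewer than 100 counts per library, and Cox4i2 had 75 in its lowest library.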
